A study of Homo sapiens with 11 samples.

Results

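The chromosome ends studied here were the first and last 2 Mb of chromosomes 1 to 22 except chromosome 19, and a region was counted at an end when its centre lay there. The last position of a chromosome was the largest end over the 8 deposited lists of regions. By this rule 20731 of the 407030 regions lay at an end, and 361315 lay in the rest of the same chromosomes. The rule used position, and no density, score or overlap entered it. Long-arm ends were placed by the called regions, and the ends were chosen with earlier results of these data known. Together the 42 ends span 84 Mb, against 2737 Mb in the rest. The short-arm ends of the 5 acrocentric chromosomes (13, 14, 15, 21 and 22) held no region of any list, which left 37 ends with data.

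The study asked how RepID, a protein that binds a group of replication origins, brings the ubiquitin ligase scaffold CUL4 to chromatin. In U2OS, a human osteosarcoma line, 5 lists were made: origins from short nascent strands of RepID WT cells purified with lambda exonuclease, and ChIP-Seq of CUL4A, CDT2, H3K4me3 and H3K9me3. All ChIP-Seq in the series used unsynchronized cells without treatment. The series description gives U2OS cells with stable overexpression of FLAG-RepID-FL as the source of CDT2 chromatin, whereas the paper names wild-type U2OS cells, and the input labelled for that line carries HCT116 as its cell line, so the CDT2 source could not be settled. In HCT116, a human colorectal carcinoma line, 3 lists were made: origins of RepID KO cells, and SKP2 ChIP-Seq of WT and of RepID KO cells. The knockout was made by CRISPR-Cas9, and the label of its nascent strands names a clone, so the KO lists may describe 1 clone. Another 3 samples are inputs with no list. Origins of HCT116 WT cells and the RepID list itself were not analysed here, so the origin lists differ in cell line and in RepID at once, and these cannot be told apart. Every list came from 1 sample. Therefore no spread between replicates could be measured, no test between conditions was possible, and the 95% intervals given below cover the error of counting regions only and treat neighbouring regions as independent. The lists hold no library totals, so the depth is unknown.

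Subtelomeric DNA lies between the telomere repeat and the bulk of the chromosome arm. In human chromosomes it mixes repeated blocks shared among several ends with stretches that are rich in genes and in G and C. Such gene-rich stretches usually replicate early in S phase, whereas H3K9me3 marks silent heterochromatin, which usually replicates late. CUL4A carries the CRL4 ligase, and CDT2 is the substrate receptor with which CRL4 removes the licensing factor CDT1 in S phase. SKP2 serves the SCF ligase as a substrate receptor, and SCF can also act on CDT1. H3K4me3 is the histone mark of active promoters.

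All 8 lists were denser at the chromosome ends than in the rest of the same chromosomes, but by very different amounts. By number of single regions CUL4A showed the highest ratio, with 3969 regions at the ends, or 47.2 per Mb against 17.8 per Mb in the rest, which was 2.65-fold (exact 95% interval 2.57 to 2.74). U2OS origins showed a much lower ratio. There were 5114 at the ends, at 60.9 per Mb against 42.6, a ratio of 1.43 (1.39 to 1.47). The receptor CDT2 also stood below the scaffold: 1230 regions, 14.6 per Mb against 9.24, gave a ratio of 1.58 (1.495 to 1.678). Counted as single regions, the intervals of CUL4A and CDT2 do not overlap. With regions less than 10 kb apart joined, the contrast was not seen. CUL4A then stood at 1.53 (1.45 to 1.62) and CDT2 at 1.53 (1.43 to 1.63).

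The promoter mark was more concentrated at the ends than the heterochromatin mark. H3K4me3 had 1546 regions at the ends, 18.4 per Mb against 7.69, a ratio of 2.39 (2.27 to 2.52). H3K9me3 had 1930 regions, 22.98 per Mb against 19.2, and the lowest ratio of the 8 lists, 1.19 (1.14 to 1.25). In HCT116 the RepID KO origins numbered 5250 at the ends, 62.5 per Mb against 27.2, a ratio of 2.30 (2.24 to 2.37), above that of U2OS origins. SKP2 had 807 regions at the ends in WT cells and 885 in RepID KO cells. Their ratios were 2.48 (2.31 to 2.67) and 2.41 (2.25 to 2.58), so that no difference between WT and RepID KO cells was detectable in this measure.

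Covered length spread the lists further. RepID KO origins covered 34.3% of the ends and 8.72% of the rest, and U2OS origins 25.4% and 13.8%. CUL4A covered 16.8% and 4.81%. By this measure the ratio of RepID KO origins, 3.93, was above that of CUL4A, 3.49. Among the stronger 50% of each list by score it was WT SKP2 that stood highest, at 3.83 against 3.42 for CUL4A. The number of separate stretches told another story for the 3 lists made of broad islands. Origins and CUL4A islands at the ends stood close together: when regions less than 10 kb apart were joined, each joined stretch held 4.04 U2OS origins at the ends and 2.48 in the rest, 5.02 and 2.32 RepID KO origins, and 2.96 and 1.72 CUL4A islands. Counted as joined stretches, U2OS origins were less dense at the ends than in the rest (ratio 0.879), RepID KO origins were nearly level (1.06), and CUL4A kept a ratio of 1.53. For CDT2, H3K9me3 and both SKP2 lists the joined count gave ratios of 1.53, 1.15, 2.35 and 2.22, close to those of the single regions.

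The excess did not sit at the very tip of the chromosome. CUL4A reached 42.6 regions per Mb in the outermost 0.5 Mb, 58.1 between 0.5 and 1 Mb and 56.9 between 1 and 2 Mb, and then fell step by step to 27.8 between 5 and 10 Mb and 16.6 farther in. RepID KO origins showed the same shape, with 65.5 per Mb in the outermost 0.5 Mb, 75.8 between 0.5 and 1 Mb and still 58.3 between 4 and 5 Mb, against 24.8 more than 10 Mb from an end. Relative to its density more than 10 Mb from an end, H3K4me3 showed the largest drop of the 8 lists past 2 Mb, from 2.87 between 1 and 2 Mb to 1.88 between 2 and 3 Mb, or from 21.4 to 14.1 regions per Mb. CUL4A went from 3.44 to 2.94 over the same step, or from 56.9 to 48.7 per Mb. H3K9me3 was almost flat, from 24.97 per Mb in the outermost 0.5 Mb to 24.2 between 5 and 10 Mb, with its highest value, 29.8, between 3 and 4 Mb.

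**Figure D1:**
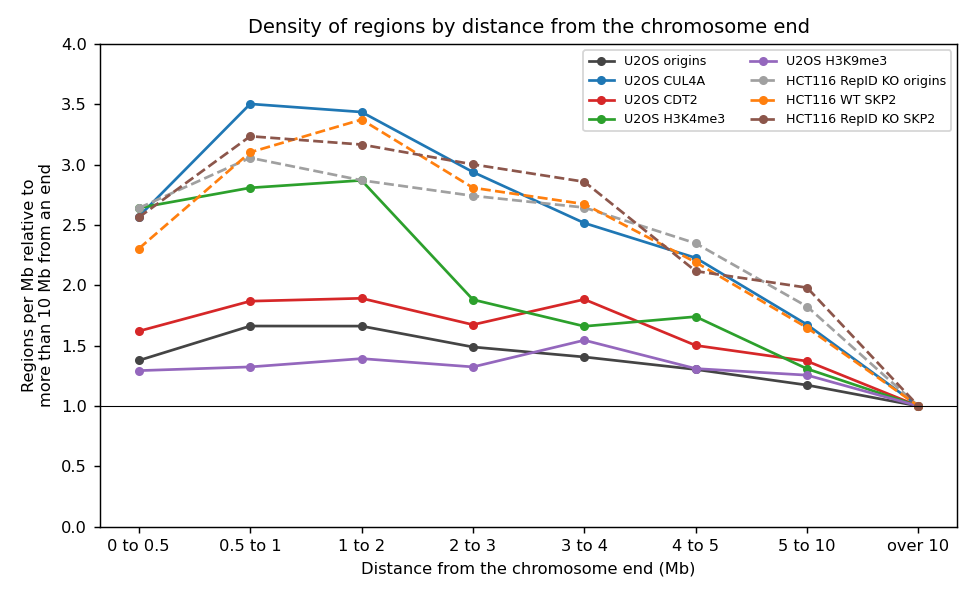
Density of each list (regions per Mb, divided by the density more than 10 Mb from an end; vertical axis) against the distance from the nearest end in Mb (horizontal axis), over the 37 ends with data; 1 line per list, dashed for HCT116. CUL4A peaks at 3.503 between 0.5 and 1 Mb, H3K4me3 drops from 2.87 to 1.88 past 2 Mb, and H3K9me3 stays between 1.26 and 1.55 within 10 Mb.

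Single ends were then set against the rest of their own chromosome. That rest was taken at full length, including stretches with no region of any list, which raises ratios on chromosomes where these are long. The short arms of the 5 acrocentric chromosomes, whose ends held no region, were not taken out of it. As a background, all 1331 windows of 2 Mb on these chromosomes that held a region of any list were treated in the same way. CUL4A was at least 2-fold denser than the rest of the chromosome at 24 of the 37 ends, whereas 15.2% of all windows passed that threshold. RepID KO origins did so at 24 ends (15.3% of all windows), WT SKP2 at 27 (11.3%), RepID KO SKP2 at 22 (11.9%) and H3K4me3 at 23 (11.6%). For CDT2 13 ends passed (12.8% of all windows), for U2OS origins 12 (8.79%), and for H3K9me3 5 (3.38%). At least 3-fold was reached at 15 ends for CUL4A (5.03% of all windows), 13 for RepID KO origins (4.66%), 16 for WT SKP2 (3.16%), 14 for RepID KO SKP2 (2.93%) and 13 for H3K4me3 (3.38%). It was reached at 8 ends for CDT2 (3.31%), 4 for U2OS origins (1.13%) and 1 for H3K9me3 (0.0751%). Among the 10 windows with the most CUL4A regions on these chromosomes, 6 were chromosome ends. For each SKP2 list 5 of the 10 densest windows were ends, for RepID KO origins 3, and for U2OS origins and H3K4me3 2 each. For CDT2 and H3K9me3 0 were. Of all 1331 windows 37 were ends. The densest CDT2 window held 153 regions, against at most 66 at an end (6q).

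**Figure D2:**
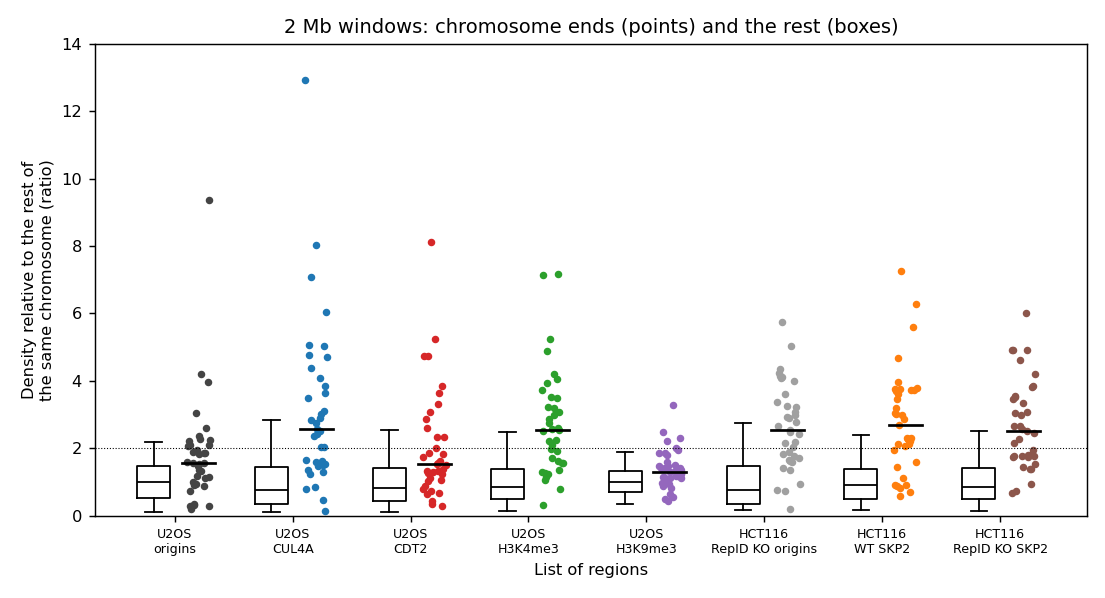
Density of 2 Mb windows relative to the rest of the same chromosome (ratio, vertical axis) for each list (horizontal axis). Points are the 37 ends with their median as a bar; boxes show the quartiles and median of the 1294 other windows, with whiskers from the 5th to the 95th percentile. The dotted line is the 2-fold threshold; the median end was at 2.58 for CUL4A and 1.30 for H3K9me3, and the highest point, 12.9, is CUL4A at 13q.

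The ends differed widely among themselves. Of the 37 ends 19 were above their own chromosome in all 8 lists, as were 16.8% of all windows. At least 2-fold in every list were 13q and 18q, against 0.601% of all windows. The lists go up and down together over the genome, so these counts are not independent of those of the single lists. At 13q there were 178 U2OS origins, 150 CUL4A regions, 30 CDT2, 58 H3K4me3 and 62 H3K9me3 regions in U2OS. In HCT116 the same end held 175 RepID KO origins, 33 WT SKP2 and 31 RepID KO SKP2 regions. Relative to the rest of chromosome 13 these values were 9.36-fold for U2OS origins, 12.9-fold for CUL4A and 8.13-fold for CDT2. They were 7.18-fold for H3K4me3, 3.27-fold for H3K9me3, and between 5.74 and 7.27-fold for the HCT116 lists. Chromosome 13 is acrocentric and its short arm was not taken out of the rest, which raises these ratios where it holds no region. These ratios describe the end against its own chromosome; in number, 22q held more CUL4A regions (196, the most of any end, at 2.36-fold) and 17q nearly as many (192).

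In contrast, 3p was below the rest of chromosome 3 in all 8 lists. It held 29 U2OS origins, 4 CUL4A, 5 CDT2, 4 H3K4me3 and 19 H3K9me3 regions, and 9 RepID KO origins, 4 WT SKP2 and 5 RepID KO SKP2 regions. CUL4A was lowest there, at 0.133 of the density of the rest of the chromosome, and H3K9me3 among the U2OS lists was the least reduced, at 0.490. The end of 9p held 18 U2OS origins, the fewest of any end, and 15 CUL4A regions. 5 ends, 1q, 3p, 9p, 17p and 20p, reached 2-fold in no list. Thus the density of the ends as a whole does not describe each of them.

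**Figure D3:**
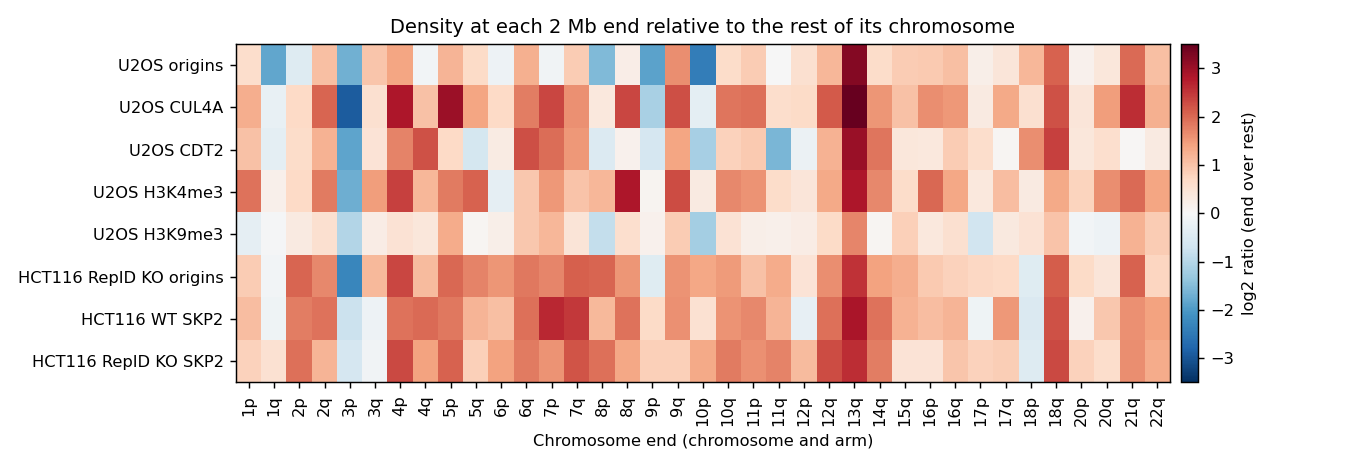
log2 ratio of the density at each of the 37 ends (columns, chromosome and arm) to the rest of the same chromosome, for the 8 lists (rows); red is denser and blue sparser. The column of 13q is red in every row and that of 3p blue in every row, while 8p and 10p are blue for U2OS origins and red for RepID KO origins.

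The 2 ends with the most members also differed by list. U2OS origins were most numerous at 16q (240) and 22q (237), and fewest at 9p and 10p (18 and 21). RepID KO origins were most numerous at 7q (218) and 2p (215), and fewest at 3p (9) and 18p (34). For H3K4me3 the leading ends were 8q (90) and 16p (87), with 4 at 3p and 12 at 6p. H3K9me3 had 86 regions at both 7p and 22q, 19 at 3p and 20 at 10p. CDT2 led at 6q (66) and 7p (59) and was lowest at 3p (5) and 11q (6). WT SKP2 led at 7p (46) and 7q (41), RepID KO SKP2 at 12q (41) and 18q (40), and both were lowest at 3p (4 and 5) and 18p (5 and 6). Across the 37 ends SKP2 regions were more numerous in RepID KO cells at 24 (64.9%), in WT cells at 12 and equal at 1. Among the 1294 other windows they were more numerous in RepID KO cells at 670 (51.8%), in WT cells at 481 and equal at 143. The RepID KO list is the longer one (13885 regions against 12221). Relative to their own chromosome, RepID KO SKP2 stood higher at 19 ends (51.4%) and WT SKP2 at 18, and RepID KO SKP2 at 48.8% of the other windows. By number the lists differed most at 7p (46 in WT, 24 in RepID KO) and 8p (19 and 37), which were picked after the values were seen.

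A low number of origins did not always mean little origin DNA. At 7p U2OS had only 69 origins, 0.911 of the density of the rest of chromosome 7, yet they covered 85.1% of the 2 Mb, the highest share of any end. CUL4A covered 69.8% of 7p in 171 regions. At 8q 96 U2OS origins covered 70.7%. By contrast, the low numbers at 8p (28) and 10p (21) went with 2.03% and 1.31% covered.

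This bears on how alike the cell lines were. HCT116 RepID KO origins stood higher relative to their own chromosome than U2OS origins at 30 of the 37 ends and at 45.4% of the 1294 other windows. By number of origins, Spearman's rho between U2OS and HCT116 RepID KO over the 37 ends was 0.314, against 0.732 over the 1294 other windows. By covered share it was 0.750 at the ends and 0.739 elsewhere. For CUL4A against RepID KO origins, rho was 0.374 at the ends by number and 0.898 by covered share, and 0.916 and 0.915 in the other windows. The points of each correlation share the genome's gene and base composition, and those of one list share a library, so these values are descriptions.

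**Figure D4:**
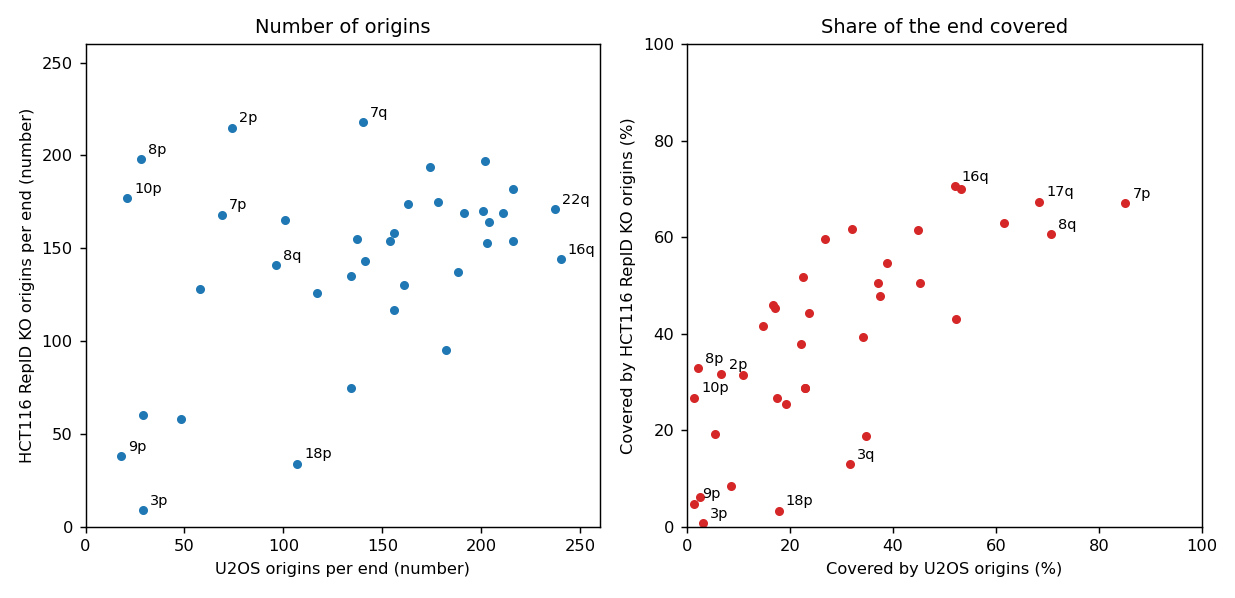
U2OS origins (horizontal axes) against HCT116 RepID KO origins (vertical axes) at the 37 ends, by number of origins (left) and by percentage of the 2 Mb end covered (right); each point is 1 end and some are named. 7p lies low by number in U2OS (69) and farthest right by coverage (85.1%), while 8p and 10p lie at the left of both panels.

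Whether the lists met each other more often at the ends was asked next, with an overlap of at least 1 bp. Of the CUL4A regions at the ends 76.2% met a U2OS origin (Wilson 95% interval 74.9 to 77.5%), against 69.0% in the rest (68.6 to 69.4%); the share was higher than in the rest of the same chromosome at 24 of the 37 ends and lower at 13. In the other direction the gap was wider: 53.5% of U2OS origins at the ends met CUL4A, against 27.98% in the rest, and 48.7% between 2 and 4 Mb from an end. CDT2 met CUL4A in 75.3% of 1230 regions at the ends and in 56.9% in the rest. CDT2 at H3K9me3 showed no detectable difference, with 45.2% and 43.2% (difference 2.002 points, 95% interval -0.83 to 4.86). CUL4A met H3K4me3 in 20.1% at the ends and 15.1% in the rest.

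The widest gap of the 8 pairs first compared was that between the origin lists of the 2 cell lines. U2OS origins met a RepID KO origin of HCT116 in 79.5% of cases at the ends and in 39.5% in the rest. The share was higher at 34 of the 37 ends than in the rest of the same chromosome. In the other direction there was hardly a gap: RepID KO origins met a U2OS origin in 60.9% at the ends and 59.8% in the rest. Within HCT116, RepID KO SKP2 regions met a RepID KO origin in 78.6% and 42.5%. WT and RepID KO SKP2 shared more of their sites at the ends, where 27.6% of WT regions met a RepID KO region, against 12.3% in the rest.

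These shares went together with broader and denser partners. RepID KO origins, for example, cover 34.3% of the ends and had a median width of 3000 bp there, against 2000 bp in the rest. When every region of both lists was replaced by 1 kb around its centre, U2OS origins met RepID KO origins in 25.05% and 18.5%, a gap of 6.52 points in place of 39.99, and RepID KO SKP2 met RepID KO origins in 31.0% and 23.3%. CUL4A then met U2OS origins less often at the ends than in the rest (34.1% and 37.2%), which turned the direction. The rule also drops partners in the flanks of wide origins and CUL4A islands, which were more common at the ends. It therefore cannot separate width from position. The gap of CDT2 at CUL4A shrank from 18.4 to 6.11 points, and that of CUL4A at H3K4me3 from 5.004 to 0.41. The gap between the SKP2 lists, 15.3 points, was 15.2 under the same rule. Most SKP2 regions are narrower than 1 kb, with medians at the ends of 433 bp in WT and 416 bp in RepID KO cells. The rule thus widened them and left their higher density at the ends in place, so it cannot separate either from position. With at least 50% of a WT region covered, the gap was 11.5 points.

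All 56 ordered pairs of lists, each pair in both directions, were compared by the 1 bp rule, and 54 had a higher share at the ends. This count takes the sign only. The gap was 0.74 points for U2OS origins at H3K9me3 and 1.03 for RepID KO origins at U2OS origins. It also includes CDT2 at H3K9me3, where no difference was detectable. The 2 exceptions, named after the values were seen, both concern CUL4A. It met CDT2 in 20.7% of its regions at the ends (19.5 to 22.03%) and in 26.4% in the rest (26.0 to 26.7%), and it met H3K9me3 in 26.9% (25.6 to 28.3%) and 33.9% (33.5 to 34.4%). The share with H3K9me3 was lower at 32 of the 37 ends than in the rest of the same chromosome, and the share with CDT2 at 24. CUL4A regions were wider at the ends (median 2600 bp against 2000 bp). With 1 kb around each centre the gaps were -6.37 points for CDT2 and -8.38 points for H3K9me3. That rule gives all regions the same width but drops partners in the flanks of wide islands, which were more common at the ends. It therefore cannot tell whether width plays a part in these gaps. Seen from CDT2, as given above, the share with CUL4A was higher at the ends. Counted singly, the CUL4A list is denser there by 2.65-fold and the CDT2 list by 1.58-fold. CUL4A regions stood closer together at the ends, with 2.96 per joined stretch against 1.72 in the rest. A stretch there thus counts as more regions. With regions less than 10 kb apart joined, both lists stood at 1.53. The shares were not computed over joined stretches, so the part of this closeness in the gaps was not tested.

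**Figure D5:**
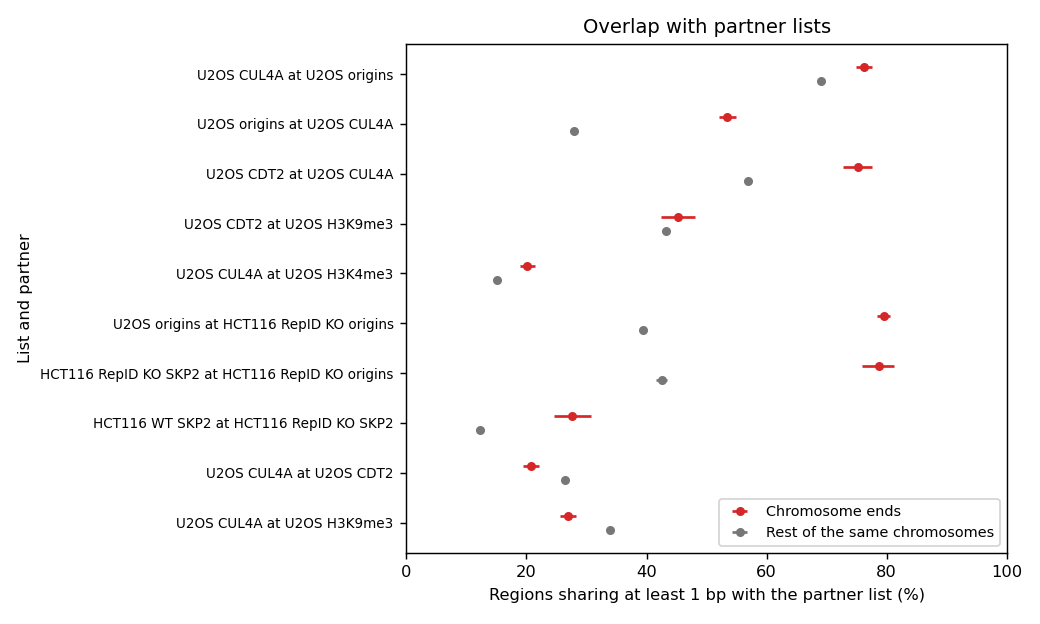
Percentage of regions of a list that share at least 1 bp with a partner list (horizontal axis) for 10 pairs (vertical axis), at the chromosome ends (red) and in the rest of the same chromosomes (grey), with Wilson 95% intervals. The first 8 pairs are higher at the ends, with overlapping intervals for CDT2 at H3K9me3; the last 2, CUL4A at CDT2 and CUL4A at H3K9me3, are lower.

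The 4 other U2OS lists were all met by 2.82% of CUL4A regions at the ends (2.35 to 3.38%) and by 2.37% in the rest (2.24 to 2.51%), a difference not detectable from these counts. With the HCT116 lists included the shares parted. A region of each of the 7 other lists was met by 21 of 3969 CUL4A regions at the ends, or 0.529% (0.346 to 0.808%), and by 53 of 48726 in the rest, or 0.109% (0.083 to 0.142%). CUL4A regions that met no other list made up 2.95% at the ends and 8.76% in the rest. RepID KO origins covered 34.3% of the ends and 8.72% of the rest, and CUL4A regions were wider at the ends (median 2600 bp against 2000 bp). The part of partner density and width in these shares was not tested. The highest scores among the 21 belonged to chr7:1605801-1645800, chr5:851001-864200 and chr13:114903601-114913000, in the coordinates of hg19. On chromosome 7 the CUL4A island of 40000 bp lay inside 1 U2OS origin and held 4 CDT2 peaks, 1 H3K4me3 region of which 6568 bp overlapped it, and 4 H3K9me3 peaks. In HCT116 it held 2 SKP2 peaks of WT cells and 2 of RepID KO cells. The island on chromosome 13, 9400 bp wide and centred 199 kb from the end, met 1 region of each of the 7 other lists. The highest-scoring CUL4A regions that met the 4 other U2OS lists also included chr7:1949001-1999200 and chr7:1039001-1077600, both wholly covered by a U2OS origin and both without a RepID KO SKP2 peak. The islands named on chromosome 7 all lay at 7p, where U2OS origins covered 85.1% of the 2 Mb and CUL4A 69.8%. Lying inside a U2OS origin is therefore common there.

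The authors' scores can be compared only within a list. Members at the ends scored higher than the rest in 7 of the 8 lists. The median score was 84 against 60 for CUL4A, 281 against 147 for RepID KO origins, 681 against 366 for WT SKP2 and 571 against 348 for RepID KO SKP2. H3K4me3 was the exception, with 95.5 against 123, a median fold enrichment of 6.10 against 7.14 and a median width of 1631.5 bp against 1912 bp. For H3K9me3 the median score was slightly higher at the ends, 27 against 25, but the median fold enrichment slightly lower, 3.95 against 4.03. When each list was split into 5 equal parts by score, the share of regions lying at an end went from 2.84% in the lowest part to 15.2% in the highest for RepID KO SKP2. It went from 3.51 to 14.3% for WT SKP2, from 4.33 to 11.8% for CUL4A and from 3.85 to 12.5% for RepID KO origins. For H3K4me3 it fell from 7.34 to 5.15%. Thus H3K4me3 regions at the ends were more numerous per Mb but narrower and lower in score than in the rest. The SKP2, CUL4A and origin regions there were, counted singly, both more numerous per Mb and higher in score. In the origin and CUL4A lists higher scores went with wider regions. Among the stronger 50% the median width at the ends was 4000 bp for U2OS origins, against 2600 bp for all of them. It was 3600 against 2600 bp for CUL4A and 4600 against 3000 bp for RepID KO origins, but 449 against 433 bp for WT SKP2. The part of width in these scores was not tested. Counted as joined stretches, U2OS origins were less dense at the ends (ratio 0.879) and RepID KO origins nearly level (1.06).

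Broad islands were also more common at the ends. Regions over 10 kb made up 13.1% of RepID KO origins there and 4.69% in the rest, 6.16% and 3.47% of U2OS origins, and 4.51% and 2.15% of CUL4A regions. The highest-scoring RepID KO origin at an end, chr16:88448001-88609600, was a single island of 161600 bp, and over it U2OS had 26 separate origins and 21 CUL4A regions. It also held 7 CDT2 peaks, 4 H3K4me3 regions, 4 H3K9me3 peaks and 5 SKP2 peaks, 2 in WT and 3 in RepID KO cells.

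The highest-scoring member of each list at an end was looked up in the other lists. The U2OS origin and the CUL4A region with the highest scores, 68399 and 33968, had the same boundaries, chr1:564401-571200. It held 1 WT SKP2 peak, with 407 bp of overlap, and met no RepID KO origin, no RepID KO SKP2 peak and no H3K4me3, H3K9me3 or CDT2 region. As background, this stretch of hg19 is known to hold a nuclear copy of mitochondrial DNA, to which reads from mitochondria can align; the part of such reads in these scores was not tested. The highest-scoring CDT2 peak, chr2:241671626-241672608, met a U2OS origin, a CUL4A region, an H3K9me3 peak and a RepID KO origin. That of H3K9me3, chr1:249184694-249185380, had a fold enrichment of 24.3 and lay 55.8 kb from the end. It lay wholly within CUL4A, CDT2 and RepID KO origin regions and met 1 WT SKP2 peak. The top H3K4me3 region, chr11:134525967-134527091, met a U2OS origin, a CUL4A region, a RepID KO origin and a RepID KO SKP2 peak. The top SKP2 regions, chr11:1092728-1093531 in WT and chr5:180472811-180473051 in RepID KO cells, each lay wholly within a U2OS origin, a CUL4A region and a RepID KO origin. Each also met a U2OS H3K9me3 peak, over 430 bp for the WT region and 170 bp for the RepID KO region. The RepID KO region lay wholly within a U2OS H3K4me3 region as well. Neither of these SKP2 regions met a SKP2 region of the other genotype.

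The distance of the outermost region from the end depends on the length of a list, which runs from 12221 regions for WT SKP2 to 127325 for U2OS origins, so the values below describe each list and do not rank them. The outermost U2OS origin lay a median of 9.80 kb from the end of the coordinates, and within 20 kb at 25 of the 37 ends, and the outermost RepID KO origin a median of 7.67 kb, within 20 kb at 29. The outermost CUL4A region lay within 20 kb at 12 ends, with a median of 32.8 kb. H3K9me3, H3K4me3 and CDT2 came within 20 kb at 9, 6 and 7 ends. WT SKP2 did so at 11 ends and RepID KO SKP2 at 2, with medians of 58.1 and 111 kb. The largest end over the lists stands in for the last base of a chromosome, so at each long-arm end at least 1 list lies at distance 0 by construction. At 1p the outermost origins of both cell lines began at the same position, chr1:9801-10400 in U2OS and chr1:9801-27000 in RepID KO cells. They also shared a start at 4p (10001) and at 7p (9801). Such starts may mark the first position where a region could be called, which was not tested. Short-arm distances ran from the first coordinate, and the medians above pool them with long-arm distances. Reads from repeated blocks that several ends share can be placed at any of them, and their part in these outermost regions was not tested.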

How the data were processed

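Of the 11 samples, 8 have a deposited list of regions, with 1 sample per list; the 3 inputs have none. Region calling was done by the authors, and reads were not used here. Per the submitters' processing notes the build is hg19 and the tools include MACS and SICER. The methods give SICER with windows of 200 bp and gaps of 600 bp (false discovery rates of 0.01 for origins and 1e-05 for CUL4A), and MACS2 broad peaks for CDT2 and SKP2. Each list carries a score of the authors whose scale is not stated. For both histone marks the deposited columns are those of a MACS2 broad peak file, although the methods name SICER; they hold the authors' fold enrichment as a ratio, −log10 p and −log10 q. These differences in caller bear on widths and counts, so scores were not compared between lists, and numbers of regions were compared between lists as ratios to the rest of the chromosomes or with the length of the lists beside them.

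The members and lists were chosen with earlier results of these data known. Densities are regions per Mb by region centre, with an exact (Clopper-Pearson) 95% interval of the ratio. Overlaps needed 1 bp, with Wilson intervals for shares and Newcombe intervals for differences. Ends named are the 2 with the most and the 2 with the fewest members of a list; regions named are the highest-scoring member of each list, the 5 highest-scoring CUL4A regions that meet the 4 other U2OS lists, up to 3 that meet all 7 others, and outermost members. Overlap counting was tested on simulated data, where 0 of 2000 answers differed from a direct count. No gene or sequence was assigned to a region, since no genome or annotation of hg19 was used here. Python 3.11.15, NumPy 2.4.6, SciPy 1.17.1 and matplotlib 3.10.9 were used.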

Additional observations from a re-analysis of the deposited data

Results flagged for a closer look

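The ends of 8p and 10p went opposite ways in the origin lists of the cell lines. At 8p U2OS origins stood at 0.343 of the density of the rest of the chromosome (28 origins) and HCT116 RepID KO origins at 4.08 (198 origins). At 10p the values were 0.187 (21 origins) and 2.54 (177 origins). A difference of at least 1.5-fold each way was seen at 2 of the 37 ends (5.41%) and at 31 of the 1294 other windows (2.40%). The difference was not tested, since each list is 1 sample. The other U2OS lists at 10p were also low or near the level of the chromosome, with 0.793 for CUL4A, 0.447 for CDT2 and 0.440 for H3K9me3, but 1.24 for H3K4me3. At 8p H3K4me3 stood at 2.23 and CUL4A at 1.29 while CDT2 and H3K9me3 stood at 0.716 and 0.556. In HCT116, SKP2 stood at 3.82 at 8p and 2.501 at 10p in RepID KO cells, and at 2.22 and 1.44 in WT cells.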

How the results depend on the processing

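Of the 64 alternative density ratios 63 lay above 1. The exception was U2OS origins with regions less than 10 kb apart joined, at 0.879; the same rule gave 1.53 for CUL4A, 1.97 for H3K4me3, 1.06 for RepID KO origins and 2.22 for RepID KO SKP2. Ends of 1 Mb gave 1.35 for U2OS origins, 2.42 for CUL4A and 2.15 for WT SKP2, and ends of 5 Mb gave 1.34 for U2OS origins, 2.45 for CUL4A and 1.91 for H3K4me3. In the order U2OS origins, CUL4A, CDT2, H3K4me3, H3K9me3, RepID KO origins, WT SKP2 and RepID KO SKP2, the ratios without the acrocentric chromosomes were 1.48, 2.86, 1.75, 2.61, 1.27, 2.54, 2.69 and 2.66, and those of the stronger 50% of each list 1.73, 3.42, 1.97, 2.07, 1.33, 3.15, 3.83 and 3.65. By covered base pairs, in the same order without H3K4me3, they were 1.84, 3.49, 1.96, 1.30, 3.93, 2.95 and 2.77. Using only bins of 100 kb that held a region, or leaving out the end with the most members (chosen after seeing the data), kept every ratio within its interval. Ends at 3-fold or more numbered 4, 15, 8, 13, 1, 13, 16 and 14 in the full order, against 1.13, 5.03, 3.31, 3.38, 0.0751, 4.66, 3.16 and 2.93% of all windows.

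With at least 50% of a region covered, the share at the ends minus that in the rest was 5.78 points for CUL4A at origins, 22.5 for origins at CUL4A, 0.72 for CUL4A at H3K4me3, 41.6 for U2OS at RepID KO origins, 11.5 for WT at RepID KO SKP2, -3.19 for CUL4A at CDT2 and -3.23 for CUL4A at H3K9me3. With 1 kb around each centre it was -3.09 points for CUL4A at origins, which reversed, 10.9 for origins at CUL4A, 6.11 for CDT2 at CUL4A, 0.41 for CUL4A at H3K4me3, 6.52 for U2OS at RepID KO origins and 7.71 for RepID KO SKP2 at RepID KO origins. Median widths at the ends among the stronger 50% were 4000 bp for U2OS origins, 3600 for CUL4A, 769.5 for CDT2, 3568.5 for H3K4me3 and 4600 for RepID KO origins. The planned counts at fixed genes and of base composition were not run, for want of an hg19 reference. No paired analysis was possible because each group has 1 sample, and leaving out a replicate was not possible either. Depth is unknown, so a list's length cannot be set against its depth.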
